A study of Mus musculus with 6 samples.

Results

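The epithelium of the colon keeps bacteria at a distance with secreted antimicrobial proteins and with the transport of antibody into the lumen. The genes followed here are 10 of the 18477 in the table, and all 10 passed the filter on low counts that left 14579 tested genes. They were chosen by name for this role: the lectins Reg3b, Reg3g and Reg4, the goblet cell and crypt products Retnlb, Ang4 and Itln1, the lysozyme Lyz1, the antibody carrier Pigr, and Slpi and Wfdc2, small proteins of the whey acidic protein (WAP) family. Colon RNA came from male C57BL/6 mice, bought at 6 to 8 weeks of age. All received water for 7 days and then 2% dextran sulfate sodium (DSS), a sulfated polysaccharide that injures the colon epithelium, on days 8 to 14. The DSS group (n = 3) was given PBS by gavage daily for 14 days, and the DSS+BV group (n = 3) was given *Bacteroides vulgatus*, a common gut commensal, in PBS on the same schedule. Each library came from 1 mouse of its group, and no library of mice without DSS was analysed here, so every value below compares 2 groups of injured colons.

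The Reg proteins are C-type lectins that bind sugars on the bacterial surface, and Reg3g is known for killing Gram-positive bacteria through peptidoglycan. Reg3b and Reg3g are induced in epithelial cells by microbial signals through MyD88 and by interleukin-22 through STAT3. Goblet cells secrete RELMβ, the product of Retnlb, together with mucus, and Pigr carries dimeric IgA and IgM from plasma cells across the epithelium.

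The members lie on 7 chromosomes, and the positions given here are those of RefSeq on GRCm38.p6, the build named in the submitters' processing notes. Reg3b (Entrez gene 18489, chr6:78370885-78373466, plus strand) and Reg3g (19695, chr6:78466269-78468874, minus strand) end a cluster of 97990 bases that also holds Reg3d, Reg3a, Reg2 and Reg1. Slpi (20568, chr2:164354070-164356507, minus strand) and Wfdc2 (67701, chr2:164562715-164568510, plus strand) are 206207 bases apart. Lyz1 (17110, chr10:117287795-117292868, minus strand) lies 5522 bases from Lyz2, its close copy. Ang4 (219033) lies at chr14:51763892-51773590 on the minus strand, Retnlb (57263) at chr16:48816856-48818892 on the plus strand and Reg4 (67709) at chr3:98222138-98236748 on the plus strand. Pigr (18703) is at chr1:130826684-130852249 on the plus strand and Itln1 (16429) at chr1:171518123-171535325 on the minus strand.

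The promoter sequences of Reg3b and Reg3g are shown because these genes had almost the same profile over the 6 libraries, and that of Ang4 because it was the only member whose groups did not overlap. Each line holds the 250 bases before the RefSeq start, 5′ to 3′ on the gene's own strand, and capitals mark matches to the motifs described after them.
Reg3b, chr6:78370635-78370884, plus strand: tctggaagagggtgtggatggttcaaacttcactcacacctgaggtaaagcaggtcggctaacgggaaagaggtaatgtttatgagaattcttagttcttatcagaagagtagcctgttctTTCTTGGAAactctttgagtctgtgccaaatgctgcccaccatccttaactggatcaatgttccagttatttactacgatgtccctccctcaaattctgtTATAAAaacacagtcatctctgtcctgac
Reg3g, chr6:78468875-78469124, minus strand: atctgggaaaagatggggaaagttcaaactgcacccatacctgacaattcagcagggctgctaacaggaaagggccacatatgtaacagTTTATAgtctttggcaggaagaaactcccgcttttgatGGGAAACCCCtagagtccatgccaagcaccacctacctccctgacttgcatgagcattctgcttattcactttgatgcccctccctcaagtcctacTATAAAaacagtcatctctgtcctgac
Ang4, chr14:51773591-51773840, minus strand: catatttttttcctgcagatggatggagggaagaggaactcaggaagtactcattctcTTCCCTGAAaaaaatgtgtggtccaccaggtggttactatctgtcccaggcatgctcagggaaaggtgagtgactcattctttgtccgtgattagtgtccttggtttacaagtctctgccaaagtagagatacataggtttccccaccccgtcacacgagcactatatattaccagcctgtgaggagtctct

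Reg3b and Reg3g had 70.0% of the 250 bases identical in a global alignment. The other 35 pairs among the 9 members with a promoter window shared between 40.4% and 58.0%. The windows of Reg4 (chr3:98221906-98222155) and Itln1 (chr1:171535295-171535544) overlap the gene spans given above, so they precede other starts than those. The TATA motif, searched as TATAAA, lay 29 to 24 bases before the start of Reg3b and 27 to 22 bases before that of Reg3g, with a reversed copy further up in Reg3g. It was found in 2 of the 9 members and in 12.4% of 32851 promoter windows of the same length. A STAT motif, TTCNNNGAA, was present in Reg3b as TTCTTGGAA and in Ang4 as TTCCCTGAA, against 7.02% of all windows. The longer spacing read by STAT6, TTCNNNNGAA, matched no member and 5.85% of windows. An NF-kB motif, GGGANNNNCC, matched Reg3g as GGGAAACCCC, and also Itln1 and Pigr, against 17.6% of windows. Motifs were searched on both strands. These are matches of letters and were not tested as binding sites.

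The summed expected counts per library lay between 15293276 and 17254343, and the values below are CPM, in which each count is divided by its library total after TMM scaling. The members together took 0.285%, 0.691% and 0.348% of all counts across the DSS mice, and across the DSS+BV mice 0.524%, 0.507% and 0.501%, most of it Pigr. Grouped by the correlation of all tested genes, the libraries did not fall by treatment: DSS 1, DSS 3 and DSS+BV 1 formed one set and DSS 2, DSS+BV 2 and DSS+BV 3 the other. The labels give no position along the colon. Genes named as distal colon markers, summed, read 336, 58.6 and 188 CPM in the DSS libraries and 335, 161 and 8.66 CPM in the DSS+BV libraries, and proximal colon markers read 68.6, 997 and 141 CPM against 225, 3048 and 4231 CPM. The pan-epithelial list was higher in every DSS+BV library, at 16498 to 21635 CPM against 13229 to 15230 CPM, and 12 of its 12 genes had a fitted value above 0. RNA from whole tissue cannot tell fewer cells of a type from less RNA per cell.

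None of the 10 members was called different between the groups by edgeR, for which a call needs an adjusted p below 0.05 together with a change beyond 1 on the log2 scale in either direction. Over all tested genes that rule called 13, or 0.0892%, all of them lower in DSS+BV (0.0892%) and 0 higher. At an unadjusted edgeR p under 0.05 there were 2 members, Ang4 and Reg4, both with higher fitted values, where 12.5% of tested genes passed, 9.12% lower and 3.4% higher. DESeq2 gave an adjusted p for 9 members and called 1, Ang4, where 2.01% of 16155 genes were called, 1.73% lower and 0.279% higher. Only Ang4 had groups that did not overlap, against 17.6% of tested genes, 11.3% lower and 6.37% higher. Fitted log2 fold changes were above 0 for 7 members and below 0 for 3, with a median of 0.67 against -0.01 for all tested genes. That median ranged from 0.30 without DSS+BV 3 to 1.30 without DSS 2, and was 0.41 without DSS 1 and 0.43 without DSS 3. The split was 5 and 5 without DSS+BV 1, and the median was 0.22 over the 9 members with a DESeq2 p and 0.21 over the 9 that passed a filter at 1 CPM. Scaled to the pan-epithelial genes, which moved the median of all tested genes to -0.42, the split was 5 and 5 and the members' median 0.31. An exact two-sided permutation test of 3 against 3 mice cannot give a p under 0.1.

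**Figure D1:**
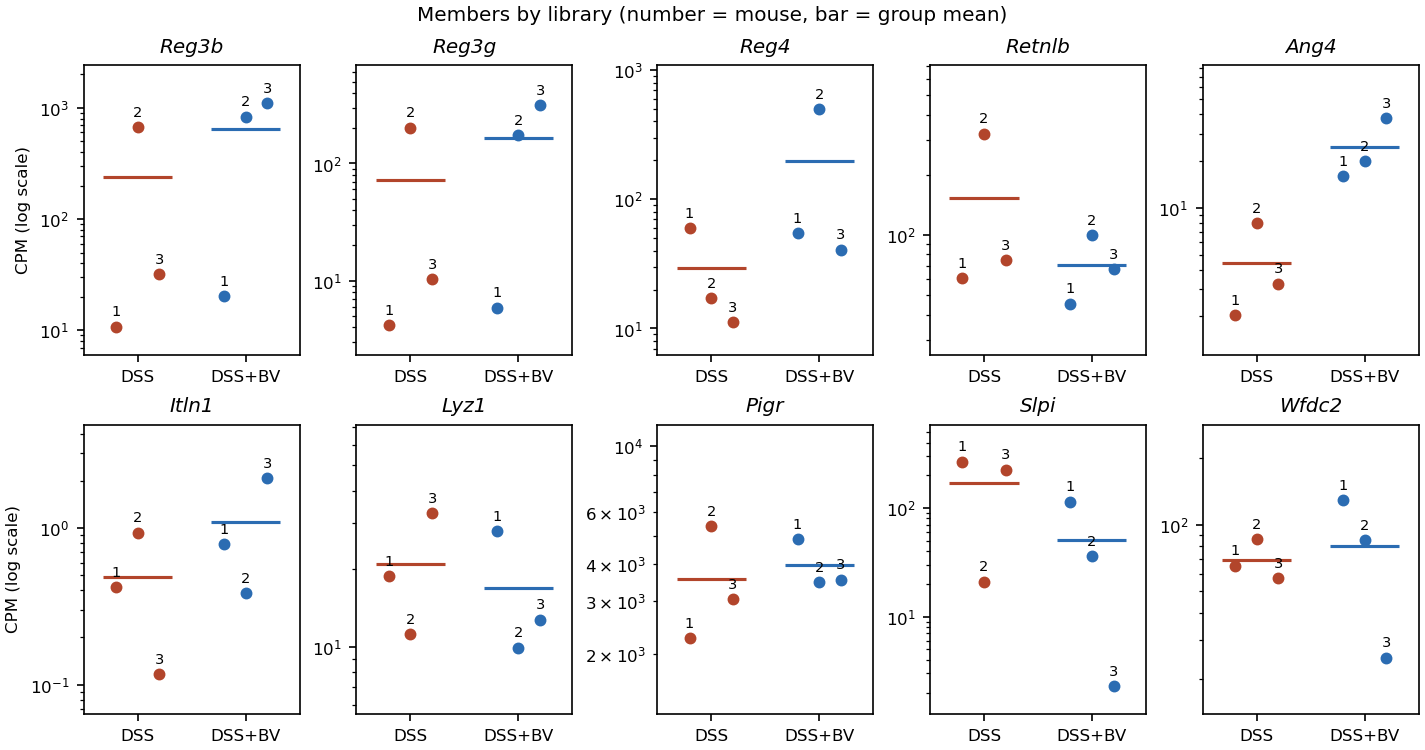
Normalized expression of the 10 members in each library (y axis, CPM on a log scale; points are single mice with their replicate number, bars are group means of 3). The DSS+BV points lie above all DSS points for Ang4 alone, and Reg3b and Reg3g are high in DSS 2, DSS+BV 2 and DSS+BV 3.

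Reg3b, in the order of replicates 1, 2 and 3, stood at 10.8, 669.5 and 31.9 CPM in the DSS mice, against 20.4, 831.0 and 1096 CPM in the DSS+BV mice. DSS 2 was thus close to the high mice of the DSS+BV group, DSS+BV 1 lay between the low mice of the DSS group, and the groups overlapped. The counts behind these values ranged from 181 to 17333, so counting error is small beside the spread. Within a group the highest mouse was 61.8 times the lowest in DSS and 53.8 times in DSS+BV. The group means were 237 ± 374 and 649 ± 560.3 CPM (SD, n = 3 each). Its log2 fold change was 1.45 (SE 1.71, 95% interval -2.63 to 5.53) with an edgeR adjusted p of 0.750. It was 4.93 without DSS 2 (edgeR adjusted p = 0.240) and 0.85 without DSS+BV 3.

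Reg3g followed Reg3b library by library. It was read at 4.19, 201 and 10.3 CPM in the DSS mice and at 5.87, 175 and 313 CPM in the DSS+BV mice, so the same 3 libraries were high and the groups overlapped. Its log2 fold change was 1.195 (SE 1.63, 95% interval -2.71 to 5.10, edgeR adjusted p = 0.787), 4.50 without DSS 2 and 0.33 without DSS+BV 3. The ratio of Reg3b to Reg3g counts stayed between 2.59 in DSS 1 and 4.76 in DSS+BV 2, while the highest mouse of a group was at least 48.0 times the lowest for each gene. After each profile was centred on its own mean, Reg3b and Reg3g differed by a root mean square (RMS) of 0.27 on the log2 scale, the smallest value among the 45 pairs of members, of which the next was Pigr with Wfdc2 at 0.69.

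Other genes shared this pattern. Nearest to Reg3b among 14569 other tested genes were Cyp2c65 (RMS 0.58), a cytochrome P450, and Alpi (0.60), the intestinal alkaline phosphatase of absorptive cells, followed by Acaa1b (0.71), a peroxisomal thiolase. Reg3g had Cyp2c65 (0.63) and Tmigd1 (0.64) among its nearest genes. The RMS of Reg3b about its own mean was 2.77, so these distances are small beside its own variation. Alpi had 0.24, 64.2 and 3.20 CPM across the DSS mice, against 1.65, 39.5 and 86.7 CPM across the DSS+BV mice. Alpi belongs to a list of Paneth and small intestine markers, of which Sis and Fabp2 were also near Reg3b (RMS 0.84 and 1). Sis had 0, 1.93 and 0.12 CPM in DSS and 0.20, 8.28 and 19.5 CPM in DSS+BV. Fabp2 had 5.45, 229 and 19.8 CPM against 44.65, 270 and 303 CPM. In the same list Apob was also high in DSS 3, at 146 CPM, and Fabp6 was highest in DSS+BV 1, at 7.26 CPM. Cdx2, the homeobox factor of intestinal identity, had 42.2, 176 and 40.0 CPM across the DSS mice, against 60.5, 192 and 327 CPM across the DSS+BV mice. Cyp2c55, a gene of the proximal colon list, had 8.32, 833 and 64.3 CPM across the DSS mice, against 133, 2714 and 3776 CPM across the DSS+BV mice. Cyp2c55 makes up most of the proximal sum in the high libraries, and the other 5 proximal markers summed to 60.3, 164 and 76.6 CPM against 92.3, 334 and 455 CPM. Within that list, Hoxb6 was as low in DSS 2 (2.18 CPM) as in DSS 1 and DSS 3 and reached 34.2 and 40.02 CPM in DSS+BV 2 and 3. Fxyd4 of that list had 26.3, 0 and 17.9 CPM against 27.6, 22.5 and 0 CPM. It was thus at 0 in DSS 2 and DSS+BV 3, where Hoxd13 of the distal colon list was also lowest (1.06 and 0.06 CPM), so its place among proximal markers is uncertain. Reg genes are also made by the exocrine pancreas, and the 9 pancreas markers summed to 37.6 to 112 CPM, mostly Cela1. The other 8 summed to 0.66, 0.19 and 0.47 CPM over the DSS libraries and to 1.12, 0.38 and 8.91 CPM over the DSS+BV libraries. They were highest in DSS+BV 3, where Reg3b and Reg3g were also highest, with Amy2a5 at 4.93 CPM and Ctrb1 at 1.08 CPM there, and were lowest in DSS 2, where Reg3b was high too. The part of colon position, of cells with small intestine markers or of pancreatic RNA in the Reg3b and Reg3g values was not tested.

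The genes between Reg3b and Reg3g in the cluster were near 0. Reg1 had counts of 1, 1 and 0 in DSS and 0, 11 and 31 in DSS+BV, and Reg3a had 0, 3 and 0 against 0, 6 and 11. Reg2 reached 4 counts and Reg3d 1 count in any library. None of these 4 passed the filter on low counts.

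Reg4, a lectin made by secretory cells at the base of colon crypts, had another pattern. It had 59.6, 17.2 and 11.2 CPM across the DSS mice, against 54.5, 495 and 40.8 CPM across the DSS+BV mice, so DSS+BV 2 stood far above the other 5 and the rest of the groups overlapped. The log2 fold change was 2.75 (SE 1.14, 95% interval 0.03 to 5.46) with an unadjusted edgeR p of 0.0483 and an adjusted p of 0.398. Without DSS+BV 2 it was 0.70, and without DSS 1 it was 3.80. DESeq2 returned no p for Reg4. Its nearest genes were more distant than those of Reg3b, with Has1, a hyaluronan synthase, at an RMS of 0.996, Dusp9 at 1.16 and St3gal5 at 1.17.

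**Figure D2:**
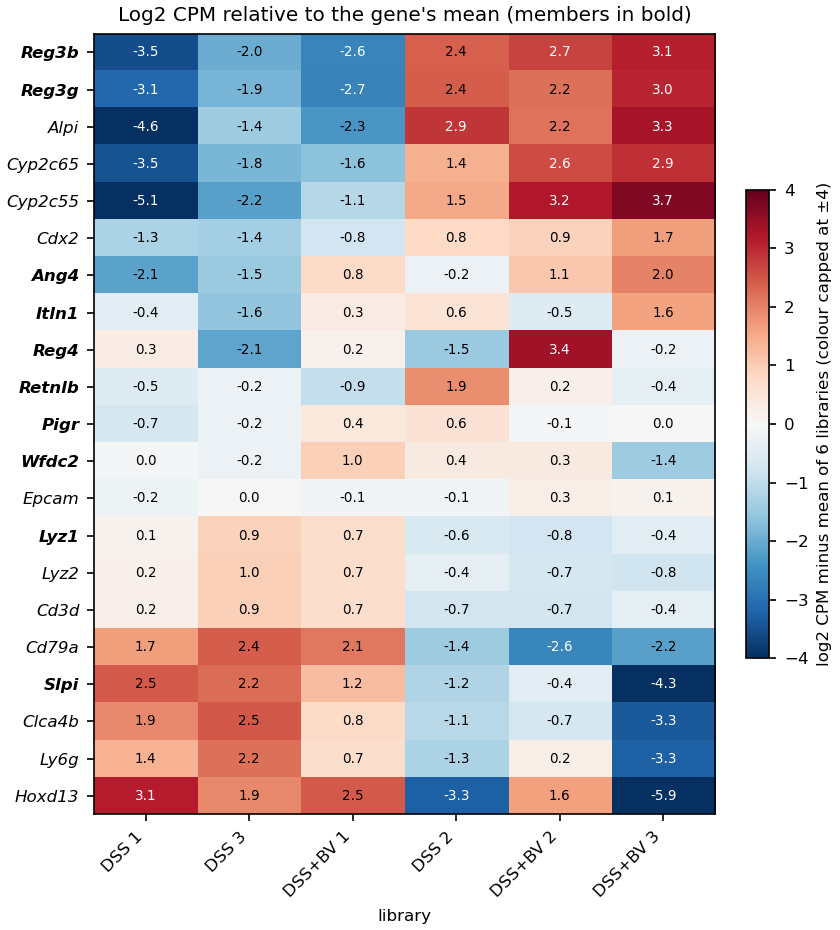
Log2 CPM of the members (bold) and of comparison genes, which are near neighbours of members and markers of epithelium, lymphocytes, neutrophils and colon position, relative to the gene's mean over the 6 libraries (columns, ordered by the 2 sets of similar libraries rather than by treatment; colour capped at 4). Reg3b and Reg3g run from -3.5 to 3.1 along with Alpi and Cyp2c65, Slpi runs the other way, and Pigr stays within 0.7 of its mean.

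Ang4, a ribonuclease of the angiogenin family with microbicidal activity made by Paneth and goblet cells, was the only member whose groups stood apart. It had 2.04, 7.96 and 3.26 CPM across the DSS mice, against 16.0, 19.9 and 37.7 CPM across the DSS+BV mice. All 3 DSS+BV mice lay above all 3 DSS mice, with counts of 242 to 597 against 34 to 128. The means were 4.42 ± 3.13 and 24.5 ± 11.6 CPM (SD, n = 3 each). This gave a log2 fold change of 2.47 (SE 0.58, 95% interval 1.09 to 3.86), with an unadjusted edgeR p of 0.00415 and an adjusted p of 0.245. DESeq2 gave 2.50 with an adjusted p of 0.00109. The fold change lay between 2.03 without DSS+BV 3 and 3.22 without DSS 2, and the lowest edgeR adjusted p with a mouse left out was 0.124. Relative to pan-epithelial counts it was 2.16, with an edgeR adjusted p of 0.0839. Within each group Ang4 was highest in DSS 2 and DSS+BV 3, both among the libraries with high Reg3b. In DSS+BV 1, where Reg3b was low, Ang4 still lay above DSS 2. Among the listed genes, its profile was nearest to Spdef (RMS 0.60) and Muc2 (0.71) of the goblet cell list. The part of colon position or of goblet cells in the Ang4 values was not tested.

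The sequence relatives of Ang4 differed less between the groups. Ang was read at 7.31 to 16.1 CPM in DSS and at 12.0 to 30.6 CPM in DSS+BV (log2 fold change 0.78, edgeR adjusted p = 0.497). Ang and Rnase4 share their annotated start and overlap, and their counts were not whole in all 6 libraries. RSEM gives such values where reads are divided between genes, so their own values are uncertain. The counts of Ang4 were whole in every library. The ratio of Ang4 to Ang counts was 0.279, 0.494 and 0.241 in DSS and 1.33, 0.957 and 1.23 in DSS+BV. The tested genes nearest to Ang4 were Far2 (RMS 0.43), a fatty acyl-CoA reductase, Ppfia3 (0.47) and Nqo1 (0.52), a quinone reductase.

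Retnlb had 61.0, 321 and 74.9 CPM across the DSS mice, against 45.2, 99.8 and 67.3 CPM across the DSS+BV mice. DSS 2 stood above the other 5 libraries, which lay within 45.2 to 99.8 CPM. The log2 fold change was -1.10 (SE 0.67, 95% interval -2.71 to 0.50, edgeR adjusted p = 0.538) and turned to 0.07 without DSS 2. Its nearest genes were A630023A22Rik (RMS 0.37), Npnt (0.40) and Zfp965 (0.40).

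Itln1, which encodes intelectin, a lectin that binds sugars found on microbes, was near the limit of detection. Its counts were 7, 15 and 2 in DSS and 12, 6 and 33 in DSS+BV, with 95% exact Poisson intervals of 0.242 to 7.23 for the lowest count and 22.7 to 46.3 for the highest, which cover counting error only. The log2 fold change of 1.15 (SE 0.86, 95% interval -0.90 to 3.20, edgeR adjusted p = 0.613) was 0.27 without DSS+BV 3. Rnf186, a ubiquitin ligase of colon epithelium, was its nearest gene at an RMS of 0.42, followed by Gpld1 (0.45) and Fstl4 (0.47).

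Lyz1, the lysozyme of Paneth cells that cuts peptidoglycan, had 18.7, 11.2 and 32.7 CPM across the DSS mice, against 28.0, 9.94 and 12.8 CPM across the DSS+BV mice. The groups overlapped almost fully, and the log2 fold change was -0.31 (SE 0.51, 95% interval -1.53 to 0.92, edgeR adjusted p = 0.832), or 0.17 without DSS 3. Lyz2, the macrophage lysozyme beside it, was read at 241 to 824 CPM, and the ratio of Lyz2 to Lyz1 counts lay between 18.9 and 29.6. The profile of Lyz1 differed from that of Lyz2 by an RMS of 0.20. The 3 nearest genes were Cd3d (0.06), a chain of the T cell receptor complex, Rinl (0.07) and Rasgrp1 (0.07), an exchange factor of lymphocytes. Counts of Lyz1 were whole in every library. The Paneth cell defensins in the table were at or near 0, with 0 counts of Defa5 in all 6 libraries, at most 1 of Defa21 and at most 2 of Defa24. Defa17 and Defa22 were not in the table. Mmp7, from the same list, had counts of 5, 22 and 4 in DSS and 8, 16 and 45 in DSS+BV. The Paneth and small intestine list as a whole summed to 28.9, 453 and 171 CPM in the DSS mice and to 99.1, 443 and 549 CPM in the DSS+BV mice, mostly Apob, Fabp2 and Alpi. Summed T cell markers read 30.8 to 68.1 CPM in DSS and 30.3 to 70.6 CPM in DSS+BV, summed macrophage and monocyte markers 837 to 1924 CPM against 534 to 1364 CPM, and the part of these cells in the Lyz1 values was not tested.

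Levels were compared between members per kilobase of the longest annotated transcript, and the median of Pigr over the 6 libraries was 912 CPM per kilobase. Reg3b followed at 448, Reg3g at 120 and Retnlb at 102, then Wfdc2 at 88.5, Slpi at 85.9, Reg4 at 46.7, Ang4 at 16.9, Lyz1 at 12.5 and Itln1 at 0.53 CPM per kilobase. Reg3b exceeded Reg3g in all 6 libraries, but Reg3b ran from 13.8 to 1399 CPM per kilobase and Pigr from 585 to 1396, and neighbours from Pigr to Lyz1 in this order overlapped in range. The order differed between the groups: in DSS the median of Pigr was 793 and that of Reg3b 40.7, below Slpi at 257, Retnlb at 108 and Wfdc2 at 76.95, whereas in DSS+BV the median of Reg3b was 1061 and that of Pigr 921. Itln1, at 0.10 to 1.83 CPM per kilobase, lay below the lowest value of every other member.

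Pigr had 2252, 5375 and 3052 CPM across the DSS mice, against 4867, 3477 and 3545 CPM across the DSS+BV mice. The group means were 3560 ± 1622 and 3963 ± 783 CPM (SD, n = 3 each), with overlapping groups. On the log2 scale the fold change was 0.15 (SE 0.36, 95% interval -0.70 to 1.01, edgeR adjusted p = 0.883), and its sign turned to -0.23 when values were scaled to pan-epithelial counts, to -0.08 without DSS 1 and to -0.01 without DSS+BV 1. Its interval is the narrowest of the 10 members. Capn8 (RMS 0.09), a calpain, Appl2 (0.10) and Zfp467 (0.10) had the nearest profiles.

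A list of the IgA axis, for the cells that make the antibody carried by Pigr, held 19 genes, 15 of them in the table. The antibody genes Igha, Ighm, Igkc and Iglc1 were not in the table. Of the 15 tested genes 0 were called by edgeR or DESeq2. At an unadjusted edgeR p under 0.05 there was 1 lower, where 9.12% of all tested genes were lower. Fitted values were below 0 for 13 and above 0 for 2, and the median log2 fold change was -0.77. The median was -0.12 without DSS 3, with 10 below and 5 above, -0.36 without DSS+BV 3, -0.38 without DSS+BV 2 and -1.86 without DSS+BV 1. Only Prdm1, the factor that drives plasma cell differentiation, had groups that did not overlap, at 16.9 to 37.6 CPM in DSS and 10.5 to 15.2 CPM in DSS+BV (log2 fold change -0.92, edgeR adjusted p = 0.377). Over all tested genes 11.3% were lower without overlap. Ccr10, a homing receptor of IgA plasma cells, had a log2 fold change of -1.31 and Derl3, of the secretory pathway, -0.97, with edgeR adjusted p-values of 0.497 and 0.600. Sdc1 and Tnfsf13 had 0.19 each, with edgeR adjusted p-values of 0.728 and 0.818, and both turned below 0 with pan-epithelial scaling, which left 15 of 15 below 0. Summed B and plasma cell markers read 688, 566 and 1687 CPM in DSS and 1170, 272 and 251 CPM in DSS+BV.

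The WAP family inhibits proteases and several of its members have antibacterial activity. Slpi had 267, 20.9 and 225 CPM across the DSS mice, against 114, 36.1 and 2.28 CPM across the DSS+BV mice. It was high in DSS 1, DSS 3 and DSS+BV 1, the libraries in which Reg3b was low, and the groups overlapped. Within a group the highest mouse was 12.8 times the lowest in DSS and 50.3 times in DSS+BV. A log2 fold change of -1.75 was fitted (SE 1.31, 95% interval -4.87 to 1.38, edgeR adjusted p = 0.614), which ran from -3.14 without DSS+BV 1 to -1.18 without DSS+BV 3. Reg3b and Slpi were the farthest pair of members, at an RMS of 4.95. The profile of Slpi was nearest to Clca4b (RMS 0.53), Sfrp2 (0.55), a secreted Wnt modulator of stroma, and Insl5 (0.61), a hormone of colon enteroendocrine cells. Hoxd13, a gene of the distal colon list, had 98.8, 1.06 and 42.9 CPM across the DSS mice, against 61.9, 35.2 and 0.06 CPM across the DSS+BV mice. The 5 distal markers did not move as one, since Hoxa13 was highest in DSS 2, at 21.0 CPM, and Hoxd10 had 8.41 CPM in DSS+BV 3. Summed neutrophil markers read 648, 216 and 1038 CPM in DSS and 330, 232 and 32.8 CPM in DSS+BV, largely through Ly6g. The other 9 neutrophil markers summed to 163, 140 and 184 CPM in DSS and to 27.1, 17.1 and 13.7 CPM in DSS+BV. Both this sum and Slpi fell from DSS+BV 1 to DSS+BV 3, and both had their lowest DSS value in DSS 2. The sum was lower in each DSS+BV library than in any DSS library, whereas Slpi in DSS 2 lay below DSS+BV 1 and DSS+BV 2. The part of colon position or of neutrophils in the Slpi values was not tested.

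Wfdc2 had 65.3, 86.0 and 57.3 CPM across the DSS mice, against 129.5, 85.0 and 24.97 CPM across the DSS+BV mice, so DSS+BV mice gave both the highest and the lowest value. A log2 fold change of 0.20 was fitted (SE 0.53, 95% interval -1.07 to 1.47, edgeR adjusted p = 0.900), and this turned to -0.27 with pan-epithelial scaling and to -0.32 without DSS+BV 1. Its nearest genes were Tmprss2 (RMS 0.19), a serine protease of the epithelial surface, Btnl9 (0.22) and Cela1 (0.24), an elastase.

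**Figure D3:**
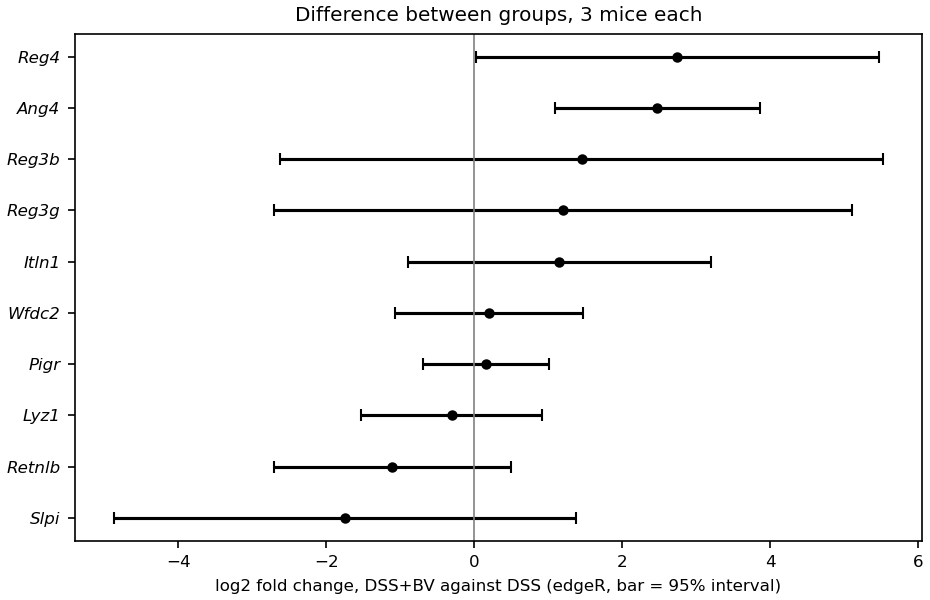
Log2 fold change of each member, DSS+BV against DSS (x axis; points are edgeR estimates from 3 mice per group, bars their 95% intervals). The interval of Ang4, 1.09 to 3.86, and that of Reg4, from 0.03, leave 0 outside, and those of the other 8 members include it; the estimates of Pigr and Wfdc2 turned below 0 with pan-epithelial scaling.

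The spread between mice of one group set the members apart from most genes. The largest log2 range among the 3 mice of a group was 5.93 for Reg3b, 5.71 for Reg3g, 5.58 for Slpi and 3.60 for Reg4, each above the range of at least 98.5% of tested genes. The median over the members was 2.38, against 0.69 over all tested genes. Pigr, at 1.26, was the least variable member and still exceeded 77.6% of tested genes.

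**Figure D4:**
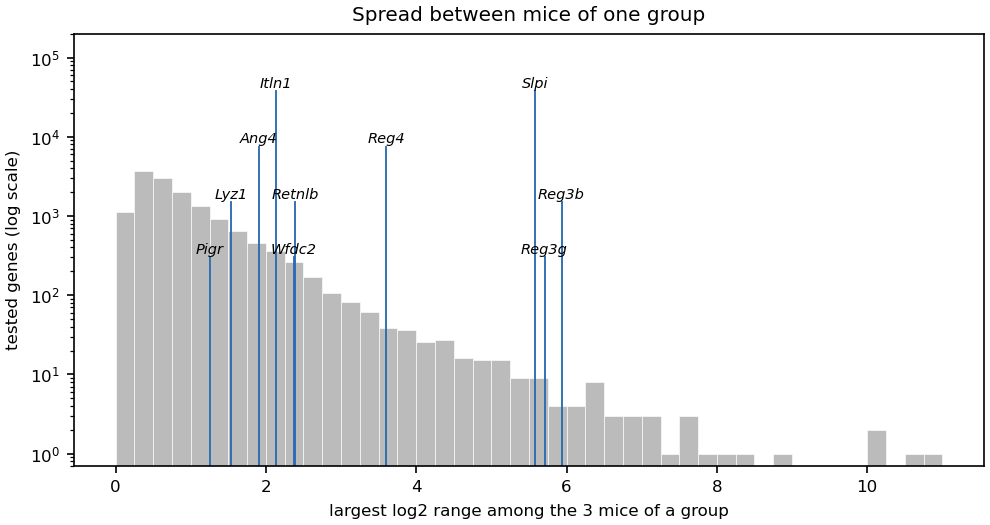
Largest log2 range of expression among the 3 mice of a group (x axis) for all 14579 tested genes (grey bars, number of genes on a log scale) and for the members (blue lines). Reg3b, Reg3g and Slpi lie beyond 5.5, and Pigr lies lowest of the members at 1.26.

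Relatives of the members by family were written as a list of 30 genes, of which 23 were in the table and 12 were tested. They held 1 call by edgeR, which called 0.0892% of all tested genes. Retnlg, a resistin-like gene of neutrophils and a relative of Retnlb, had 13.4, 20.1 and 14.7 CPM across the DSS mice, against 2.18, 1.66 and 1.26 CPM across the DSS+BV mice. It was lower, by a log2 fold change of -3.24 (SE 0.31, edgeR adjusted p = 0.0293), and it was not called with any 1 library left out or with the replicate number in the model. Retnlg also belongs to the neutrophil list, of which 5 of 9 tested genes were called lower by edgeR, between 0 and 3 with 1 library left out and 0 with the replicate number in the model. A pair of WAP genes had few counts outside DSS: Wfdc12 had counts of 22, 36 and 21 against 1, 0 and 0, and Wfdc21 had 18, 23 and 24 against 2, 0 and 1, with edgeR adjusted p-values of 0.0967 and 0.145. Retnla, a resistin-like gene of macrophages, had a log2 fold change of 0.53 and Rnase4 0.39, with edgeR adjusted p-values of 0.798 and 0.656. In all, 8 of the 12 tested relatives had fitted values below 0 and 4 above, and the median log2 fold change was -1.08. Non-overlapping lower groups were seen for 4 of them, and for 11.3% of all tested genes. That median was -0.02 without DSS 3, with 7 below and 6 above, -0.63 without DSS+BV 3, -0.68 without DSS 1 and -1.46 without DSS+BV 1. DESeq2 called 5, all lower, where it called 1.73% of 16155 genes lower, and edgeR called 4 when values were scaled to pan-epithelial counts.

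Among 25 tested genes of other mucosal defence, edgeR called 0 and DESeq2 called 6, all lower, where DESeq2 called 1.73% of 16155 genes lower. The edgeR fit placed 17 below 0 and 8 above, with a median of -0.35. At an unadjusted edgeR p under 0.05 there were 7 lower and 2 higher, against 9.12% and 3.4% of all tested genes. Without DSS 3 the list split into 13 and 13 with a median of 0.02, and the median was -0.23 without DSS+BV 3 and -0.54 without DSS 2. Scaled to pan-epithelial counts, 22 fitted values were below 0 and 3 above, and edgeR called 5 genes, Saa3, Duoxa2 and Saa2 among them with adjusted p-values of 0.0187 to 0.0460. Saa3, an acute phase serum amyloid A gene, had 136, 312 and 457 CPM across the DSS mice, against 10.5, 32.6 and 26.1 CPM across the DSS+BV mice (log2 fold change -3.71, SE 0.59, edgeR adjusted p = 0.135). Duoxa2, the maturation factor of the hydrogen peroxide source Duox2, had 124 to 228 CPM against 42.9 to 64.4 CPM (-1.61, SE 0.29, edgeR adjusted p = 0.173). Saa2 had counts of 28, 11 and 31 against 4, 2 and 1, with an edgeR adjusted p of 0.214. In the other direction, Lgals3, which encodes galectin-3, had 647 to 807 CPM against 1057 to 1616 CPM (0.85, SE 0.21, edgeR adjusted p = 0.280). Nod2, a sensor of bacterial muramyl dipeptide, had 4.85 to 5.77 CPM against 7.65 to 9.37 CPM (0.69, edgeR adjusted p = 0.329), and Lgals4 had a log2 fold change of 0.30 (edgeR adjusted p = 0.635), which turned to -0.12 with pan-epithelial scaling.

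The list of signals known to induce these proteins was mixed. It also held receptors, downstream factors and the inhibitors Il22ra2 and Socs3, so its counts do not measure induction. Of 27 tested genes, edgeR called 0 and DESeq2 called 1, lower, where DESeq2 called 1.73% of 16155 genes lower. At an unadjusted edgeR p under 0.05 there were 6 lower and 2 higher, against 9.12% and 3.4% of all tested genes. There were 17 fitted values below 0 and 10 above, with a median of -0.21, and 21 below and 6 above under pan-epithelial scaling, where edgeR called Il33 alone (adjusted p = 0.0133). The median lay between -0.29 without DSS+BV 1 and -0.07 without DSS+BV 3, and was -0.09 without DSS 3. Il33, an epithelial and stromal alarmin, had 50.1 to 62.5 CPM in DSS and 11.9 to 23.9 CPM in DSS+BV (-1.67, SE 0.27, edgeR adjusted p = 0.144). Summed fibroblast markers read 3958 to 4221 CPM in DSS and 1445 to 2101 CPM in DSS+BV, with 8 of 8 fitted lower, 0 called by edgeR and 4 by DESeq2. Summed endothelial markers read 425 to 574 CPM against 293 to 371 CPM, with 8 of 8 fitted lower and 0 called by either, and the part of these cells in the Il33 values was not tested. Tlr4 and Il4ra, receptors for lipopolysaccharide and for interleukin-4 and 13, had log2 fold changes of -0.60 and -0.67, each with an edgeR adjusted p of 0.329. Hnf4a, a transcription factor of enterocytes, had 0.64 (edgeR adjusted p = 0.329), Il17rc 0.46 (0.334) and Tlr5, the flagellin receptor, 1.22 (0.502). Il22 itself had counts of 39, 0 and 96 in DSS and 116, 76 and 1 in DSS+BV. Of the 3 libraries with high Reg3b, DSS 2 and DSS+BV 3 had 0 and 1 Il22 counts and DSS+BV 2 had 76. The part of interleukin-22 in the Reg3b and Reg3g values was not tested.

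Goblet cell genes gave 15 fitted values above 0 and 5 below among 20 tested, with a median of 0.57, and 14 and 6 with a median of 0.23 under pan-epithelial scaling. The median lay between 0.29 without DSS 1 and 1.17 without DSS 2, and was 0.38 without DSS+BV 3. None was called by edgeR or DESeq2. At an unadjusted edgeR p under 0.05 there were 0 in either direction, against 12.5% of all tested genes. Klk1, a kallikrein, was the only one with groups that did not overlap, at 165 to 549.5 CPM in DSS and 638 to 1013 CPM in DSS+BV (0.99, SE 0.45, edgeR adjusted p = 0.425). Over all tested genes 6.37% were higher without overlap. Spdef, the factor of goblet cell maturation, had a log2 fold change of 1.25 (edgeR adjusted p = 0.443) and Gcnt3, a mucin glycosyltransferase, 1.30 (0.501). Tff3, a trefoil peptide of mucus, had -0.48, Rep15 -0.28 and Clca1 -0.25, with edgeR adjusted p-values of 0.671 to 0.880.

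**Figure D5:**
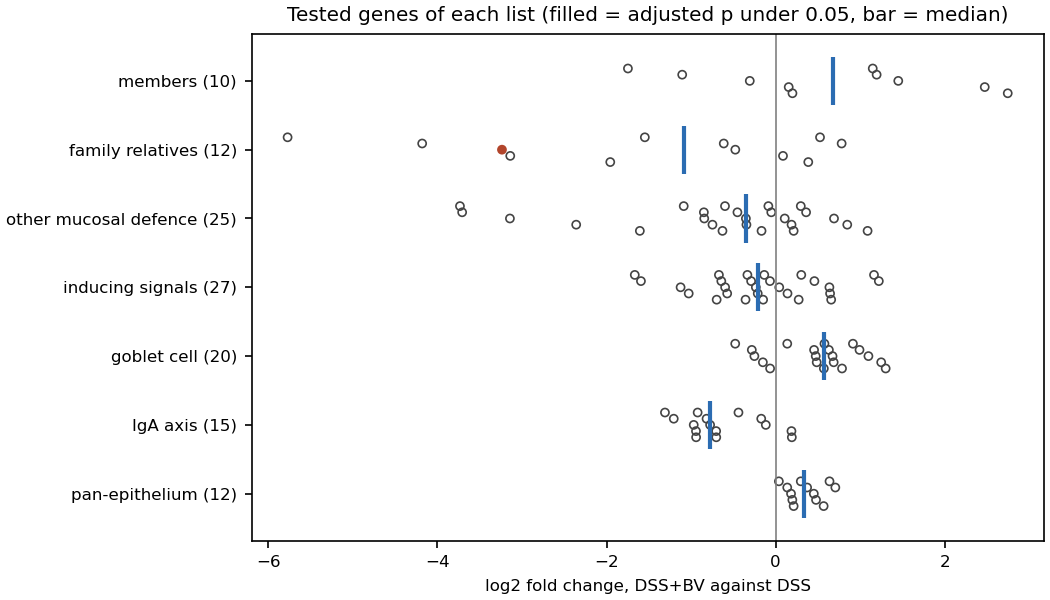
Fitted log2 fold changes, DSS+BV against DSS, of the tested genes of each list (circles; number of genes in brackets, filled where the edgeR adjusted p is under 0.05, blue bars are medians). Retnlg is the single filled circle; the estimates of Wfdc12 and Wfdc21, at the far left of the relatives, rest on 0 to 2 counts per DSS+BV library and give no size.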

How the data were processed

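RNA from the colons of 3 DSS and 3 DSS+BV mice was sequenced as 6 libraries. The authors deposited expected counts per gene from RSEM 1.2.8, and the submitters' processing notes also name HISAT2 2.1.0, Bowtie2 2.2.5 and GRCm38.p6. The expected counts are not scaled between libraries. Values that were not whole, as RSEM gives where a read matches more than 1 gene, were present for 1573 genes (8.51%) and for none of the members.

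Expected counts were rounded. The filter was filterByExpr (count minimum 10, total minimum 15), and scaling used TMM. The test was edgeR's quasi-likelihood test (version 4.0.16, R 4.3.3), adjusted by Benjamini-Hochberg over all 14579 tested genes. Intervals use the standard error and degrees of freedom of the fit. Log2 CPM profiles used a prior count of 2. The biological coefficient of variation was 32.1%. P-values set the difference between the groups against the variation between libraries of a group. Differences between mice in dissection or library preparation are part of that variation and cannot be told apart from it.

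The members and the lists were chosen with earlier results of these data known, so no p-value was adjusted over a list alone. Named genes are the members, the tested genes of each list with the 3 smallest p-values in each direction, and the 3 tested genes nearest to each member, of which 1 is not reported here. Genes outside this rule, such as Cdx2, Cyp2c55, Hoxd13, Sis, Fabp2, Lyz2, Il22 and the Reg genes near 0, were named after their values were seen. Alternatives were DESeq2 1.42.0, other scaling, filters and thresholds, a robust fit, the replicate number as a block, and each library left out. The code was tested on simulated data beforehand. Positions and promoters came from RefSeq and transcript lengths from GENCODE. Figures were drawn with matplotlib 3.10.9.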

Additional observations from a re-analysis of the deposited data

How the results depend on the processing

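Of 138 recalculated fold changes of members, 129 kept their direction and side of the threshold, 1 passed it (Ang4 with DESeq2) and 8 reversed. The reversals were Pigr (-0.23) and Wfdc2 (-0.27) scaled to pan-epithelial counts, Wfdc2 with the replicate block (-0.067), Pigr without DSS 1 or DSS+BV 1, Retnlb without DSS 2, Lyz1 without DSS 3 and Wfdc2 without DSS+BV 1. With 1 library left out, Pigr ran from -0.083 to 0.59, Retnlb from -1.47 to 0.070, Lyz1 from -0.87 to 0.17 and Wfdc2 from -0.32 to 0.63. No cause was tested. DESeq2 called 280 lower and 45 higher genes, among them 1 member, 5 relatives, 6 genes of other mucosal defence and 1 inducing signal. Scaling to pan-epithelial counts gave 230 lower and 1 higher, with 0 members, 4 relatives, 5 genes of other mucosal defence and 1 inducing signal. Leaving out each library in turn gave 0 to 3 lower and 0 to 4 higher calls, and 0 in every case for the members and the relatives. With the replicate block, 0 genes were called, relatives included. The labels do not say whether the replicate numbers pair the mice. Deviations of same-numbered libraries correlated at 0.27, 0.26 and -0.30, and DSS 2 correlated best with DSS+BV 3. The deviations within a group sum to 0 and so depend on each other, and these correlations cannot decide whether mice were paired. Itln1 was removed by the filter at 1 CPM in 3 libraries, and Reg4 received no p from DESeq2. Depth limits Itln1, with at most 33 counts. The other members had at least 34 counts in every library, so the spread between mice, not depth, limits their comparison.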
